A study of Mus musculus with 12 samples.

Results

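The miRNA genes of the Hox clusters, Mir10a, Mir10b, Mir196a-1, Mir196a-2 and Mir196b, were examined in small RNA-seq libraries of mouse embryonic stem cells (ESCs). They were taken by name from a table of 32101 annotated features, in which each of the 5 has 1 row. The rule for choosing them used no measured value. Mir10a and Mir10b were present in all 12 libraries, with 1379 and 1322 reads in total. The 3 Mir196 genes had 5, 13 and 13 reads in total.

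The libraries fall into 3 genotype groups. WT had 6 libraries, Dnmt1 KO had 2 and Dicer/Dnmt1 KO had 4. Libraries of a group whose names differ only in the letter A or B are taken here as 1 culture, which the labels do not state. That gives 3 cultures for WT, 1 for Dnmt1 KO and 2 for Dicer/Dnmt1 KO. DNMT1 is the enzyme that maintains DNA methylation when DNA is replicated, and DICER is the ribonuclease that turns miRNA precursors into mature miRNAs. All 12 libraries are labelled as E14 ESCs, whereas the methods of the study describe the Dnmt1 loxP/loxP cells as C57BL/6. The study reports small RNA-seq of a line with both genes flanked by loxP sites, derived from the Dnmt1 loxP/loxP cells by genome editing. Deletion there followed tamoxifen induction of Cre. The study also made a line with constitutive loss of Dicer, and the labels do not name the line of each library. The time after deletion is not given in the labels. WT culture 2 is titled E14 2, and the labels do not say whether any WT culture was an uninduced loxP line. A difference of cell line between WT and the knockouts cannot be told apart from genotype. ESCs were grown in serum and LIF with or without feeder cells, and the labels do not say which library came from cells on feeders. The labels also do not say whether A and B were grown separately, so p-values measure the spread between these libraries, which may be technical.

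Hox genes encode homeodomain transcription factors that set position along the body axis, and in mammals they lie in 4 clusters. Each cluster also carries miRNA genes. The miR-10 and miR-196 families target Hox transcripts among others, and the miRNAs tend to be expressed along the axis in patterns like those of the Hox genes around them. Most of each Hox cluster is repressed by Polycomb in undifferentiated ESCs. A mature miRNA selects its targets mainly by pairing through its seed, bases 2 to 8 from the 5′ end.

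The 5′ arm sequences show how the members group. All 5 genes matched the RefSeq miRNA table (GRCm38.p6), and the seed is in capitals:
miR-10a-5p: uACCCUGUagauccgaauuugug
miR-10b-5p: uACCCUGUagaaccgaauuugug
miR-196a-5p: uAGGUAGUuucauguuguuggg
miR-196b-5p: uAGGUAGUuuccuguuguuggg
miR-10a-5p and miR-10b-5p share 1 seed and differ at 1 position, U12A, counted from 1 at the 5′ end with the miR-10a-5p base first. miR-196a-5p and miR-196b-5p share another seed and differ by A12C, with the miR-196a-5p base first. Mir196a-1 and Mir196a-2 give the same 5′ arm sequence from different loci, so a read of that arm could have come from either. The 3′ arms of the Mir10 genes differ more:
miR-10a-3p: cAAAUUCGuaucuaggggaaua
miR-10b-3p: cAGAUUCGauucuaggggaaua
The substitutions are A3G, U9A and A10U, with the miR-10a-3p base first, and the first of them lies in the seed. The table counts reads over a whole precursor and does not separate the arms. The placing of reads that match more than 1 position is not stated, and 1 base separates the 5′ arms within each family, so some reads may have been placed at the other gene.

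Each member lies inside a Hox cluster (NCBIM37 coordinates, plus strand unless stated). Mir10a is at chr11:96178479-96178588 in the Hoxb cluster, within an untranslated exon of the annotated Hoxb4 transcript. Mir10b is at chr2:74564127-74564194 in the Hoxd cluster, within introns of Hoxd3 and Hoxd4 transcripts. Mir196a-1 is at chr11:96126478-96126579 in the Hoxb cluster, in no other annotated gene, and the nearest Hox gene is Hoxb9 at 6192 bases. Mir196a-2 is at chr15:102803772-102803881 in the Hoxc cluster, 1448 bases from Hoxc10 and within an intron of the noncoding gene Gm20398. Mir196b is at chr6:52180080-52180164 in the Hoxa cluster on the minus strand. It lies in an untranslated exon of 1 Hoxa9 transcript and an intron of another. Both arms of each member were found once within its interval in the NCBIM37 sequence.

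Library size sets what can be seen. Libraries held 8710 to 245184 reads, and the smallest were Dicer/Dnmt1 KO 1B with 8710, WT 2A with 16142 and Dicer/Dnmt1 KO 1A with 24491. Levels are given as RPM, the reads per 1000000 library reads. A count of 0 allows up to 3 reads, or 12.2 RPM at the depth of the largest library and 344 RPM at that of the smallest. The miRNA reads were summed over all miRNA rows, so a read over overlapping rows can count more than once. They came to 29.0% to 69.5% of library reads in WT, 62.7% and 65.4% in Dnmt1 KO, but 6.68% to 12.01% in Dicer/Dnmt1 KO. Fragments of the targeted transcripts were too few to check the genotypes, with at most 18 reads of Dnmt1 and 3 of Dicer1 in any library. The libraries labelled Dnmt1 KO held 8 and 9 reads of Dnmt1. Of the listed ESC markers, the miR-290 and miR-302 cluster miRNAs, 12 of 12 had reads, with summed levels of 28683 to 93275 RPM in WT and 55926 to 99648 RPM in Dnmt1 KO. In Dicer/Dnmt1 KO that sum was 1221 to 3797 RPM.

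Of Mir10a and Mir10b, the members with enough reads to be tested, Mir10a differed more in mean level between Dicer/Dnmt1 KO and WT. In WT its level was 616 RPM in 1A (151 reads), 586 in 1B (85 reads), 1425 in 2A (23 reads), 506 in 2B (71 reads), 471 in 3A (34 reads) and 271 in 3B (39 reads). In Dnmt1 KO it was 1936 RPM in A (131 reads) and 1171 RPM in B (126 reads). In Dicer/Dnmt1 KO it was 6002 RPM in 1A (147 reads), 2296 in 1B (20 reads), 5376 in 2A (341 reads) and 1400 in 2B (211 reads). The WT library 2A, with 23 reads, stood above the other WT libraries. It alone overlapped the knockouts, lying above Dnmt1 KO B and just above Dicer/Dnmt1 KO 2B. Without it every knockout library was above every WT library, as was so for 11.0% of all tested features in Dicer/Dnmt1 KO and 19.6% in Dnmt1 KO.

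**Figure D1:**
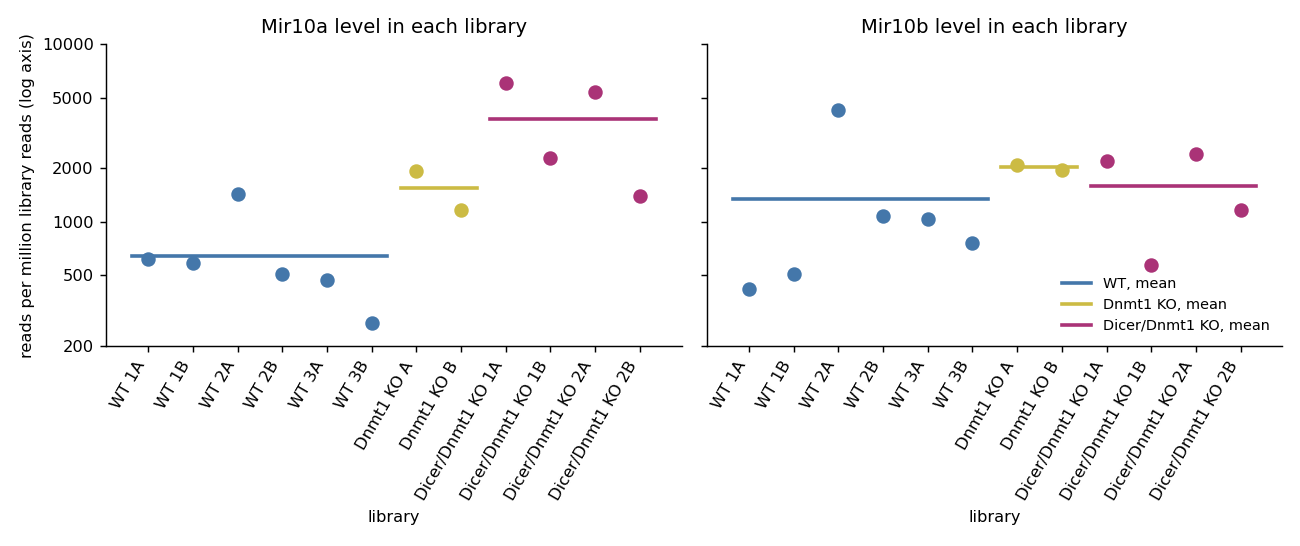
Levels of Mir10a (left) and Mir10b (right) in the 12 libraries, in RPM on a log axis; points are libraries and lines are group means. For Mir10a the Dicer/Dnmt1 KO libraries lie between 1400 and 6002 RPM and the WT libraries between 271 and 1425 RPM, while for Mir10b the WT library 2A, at 4275 RPM, is the highest of all.

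The mean Mir10a level was lowest in WT, at 646 ± 400 RPM (SD, n = 6). It was 1553 ± 541 RPM for Dnmt1 KO (SD, n = 2). Dicer/Dnmt1 KO had the highest mean, 3769 ± 2262 RPM (SD, n = 4). By RPM, Dicer/Dnmt1 KO exceeded WT by 3123 RPM (two-sided exact permutation test over 10 libraries, p = 0.00952). The smallest p that 4 libraries against 6 allow is 0.00476. Libraries were permuted singly, although A and B are taken here as the same culture. The permutation p-values therefore do not measure the spread between cultures. With WT culture 2 left out the groups no longer overlapped and the difference was 3283 RPM. The exact permutation p was 0.0286, the lowest that 4 libraries against 4 can give in a two-sided test. With RPM rescaled by TMM, a scaling that centres each library on its typical feature, the difference was 1379 RPM and the exact permutation p was 0.124. In a bulk library, a change in the number of cells of a type and a change in RNA per cell cannot be told apart.

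The scaling factors differed between groups. TMM moved levels up in WT 2A (factor 0.419) and down in Dicer/Dnmt1 KO 1A, 1B and 2A (factors 1.70, 1.96 and 1.56). On that scale WT 2A stood at 3402 RPM of Mir10a, near Dicer/Dnmt1 KO 1A (3524) and 2A (3455) and above 1B (1174) and 2B (1386). The other WT libraries stood at 243 to 699 RPM. Without scaling factors the median log2 fold change of all tested features between Dicer/Dnmt1 KO and WT was 0.70 higher than with them, and the calls in that comparison split into 84 higher and 116 lower in place of 35 and 130.

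In the model across all features (limma on TMM-scaled log2(RPM + 10), 683 features above the filter on low values), 2 of the 5 members, Mir10a and Mir10b, were tested. A feature was called at a Benjamini-Hochberg adjusted p below 0.05. Fold changes are on the log2(RPM + 10) scale. None of the tested members was called in any of the 3 comparisons, where 6.88% of tested features were called for Dnmt1 KO against WT, 24.2% for Dicer/Dnmt1 KO against WT and 22.8% for Dicer/Dnmt1 KO against Dnmt1 KO. For Dicer/Dnmt1 KO against WT the Mir10a log2 fold change was 1.62 (SE 0.63, 95% interval 0.26 to 2.98, limma adjusted p = 0.0819, unadjusted p = 0.0234). The Dnmt1 KO difference from WT was 1.55 (SE 0.80, 95% interval -0.17 to 3.27, limma adjusted p = 0.328). Between the knockouts it was 0.07 (SE 0.85, 95% interval -1.76 to 1.89, limma adjusted p = 0.968). Without scaling factors the difference between the knockouts was 1.08 (limma adjusted p = 0.310). The intervals are wide, and the order of the 2 knockout groups was not separated from their spread.

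Whether Mir10a was called depended on single libraries, WT 2A foremost. Without that library the log2 fold change for Dicer/Dnmt1 KO against WT was 2.32 (limma adjusted p = 0.00115), and that for Dnmt1 KO was 1.94 (limma adjusted p = 0.0383). Without both libraries of E14 2 they were 2.40 (limma adjusted p = 0.00161) and 1.98 (limma adjusted p = 0.0247). Calls over all tested features rose as well. For Dicer/Dnmt1 KO they were 207 of 735 without WT 2A and 195 of 660 without E14 2, in place of 165 of 683. For Dnmt1 KO they were 84 of 735 and 181 of 660, in place of 47 of 683. Without scaling factors the Dicer/Dnmt1 KO difference was 2.47 (limma adjusted p = 0.00384). Leaving out WT 3A gave 1.78 (limma adjusted p = 0.0430), Dnmt1 KO A 1.89 (0.0299) and Dnmt1 KO B 1.90 (0.0285). The Dnmt1 KO libraries are in neither group of this comparison and enter it by the spread shared across groups, by scaling and by the filter. With the A and B reads summed per culture the difference was 2.31 (limma adjusted p = 0.0665). With culture as a random effect over all 12 libraries it was 1.62 (95% interval -0.0044 to 3.24, limma adjusted p = 0.181) and was not called.

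Mir10b, whose mature 5′ arm differs from that of Mir10a by 1 base, did not follow the same order. In WT its level was 420 RPM in 1A (103 reads), 510 in 1B (74 reads), 4275 in 2A (69 reads), 1084 in 2B (152 reads), 1039 in 3A (75 reads) and 764 in 3B (110 reads). In Dnmt1 KO it was 2098 RPM in A (142 reads) and 1961 RPM in B (211 reads). In Dicer/Dnmt1 KO it was 2205 RPM in 1A (54 reads), 574 in 1B (5 reads), 2396 in 2A (152 reads) and 1161 in 2B (175 reads). WT 2A was above every other library of any group. The other WT libraries were below both Dnmt1 KO libraries, as was so for 19.6% of all tested features. They overlapped Dicer/Dnmt1 KO only through 1B, which rests on 5 reads.

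The mean Mir10b level was 1349 ± 1458 RPM for WT (SD, n = 6). Dicer/Dnmt1 KO came next, at 1584 ± 865 RPM (SD, n = 4), and Dnmt1 KO was highest, at 2029 ± 97.1 RPM (SD, n = 2). No neighbours in that order differed beyond their spread. Dicer/Dnmt1 KO exceeded WT by 235 RPM, and by the two-sided exact permutation test p was 0.867. In the limma model the log2 fold changes were 1.23 for Dnmt1 KO against WT (95% interval -0.91 to 3.36, adjusted p = 0.569) and -0.34 for Dicer/Dnmt1 KO against WT (95% interval -2.03 to 1.35, adjusted p = 0.837). The sign of the second changed to 0.51 without scaling factors (limma adjusted p = 0.564). Between the knockouts the limma log2 fold change was -1.57 (95% interval -3.84 to 0.70, adjusted p = 0.421), and -0.56 without scaling factors (adjusted p = 0.650). Without E14 2 the Dnmt1 KO difference was called, at 1.95 (limma adjusted p = 0.0333), and the Dicer/Dnmt1 KO difference was 0.73 (limma adjusted p = 0.312). In that fit 181 of 660 tested features were called for Dnmt1 KO against WT. The 2 smallest libraries, WT 2A and Dicer/Dnmt1 KO 1B, were left out together after the values were seen. They were the highest WT and the lowest Dicer/Dnmt1 KO library for Mir10b, and without them the groups did not overlap. Dicer/Dnmt1 KO then exceeded WT by 1157 RPM (exact permutation p = 0.0179, as low as 3 libraries against 5 can give). That p followed from the choice of libraries and is no support for a difference. In limma the log2 fold change was then 1.03 (adjusted p = 0.116).

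The ratio of the 2 genes within a library needs no scaling. It was looked at after their levels were known and is given without a test. In WT there were 1.47 Mir10a reads per Mir10b read in 1A, 1.15 in 1B, 0.333 in 2A, 0.467 in 2B, 0.453 in 3A and 0.355 in 3B. In Dnmt1 KO the ratio was 0.923 in A and 0.597 in B. In Dicer/Dnmt1 KO it was 2.72 in 1A, 4 in 1B, 2.24 in 2A and 1.21 in 2B. Mir10a outnumbered Mir10b in 4 of 4 Dicer/Dnmt1 KO libraries, in WT culture 1 and in no other library. The WT cultures differed from each other, with culture 1 apart from cultures 2 and 3, and Dicer/Dnmt1 KO 2B lay within the WT range. WT 2A, which was far from the other WT libraries in both levels, was close to 2B, 3A and 3B in this ratio.

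**Figure D2:**
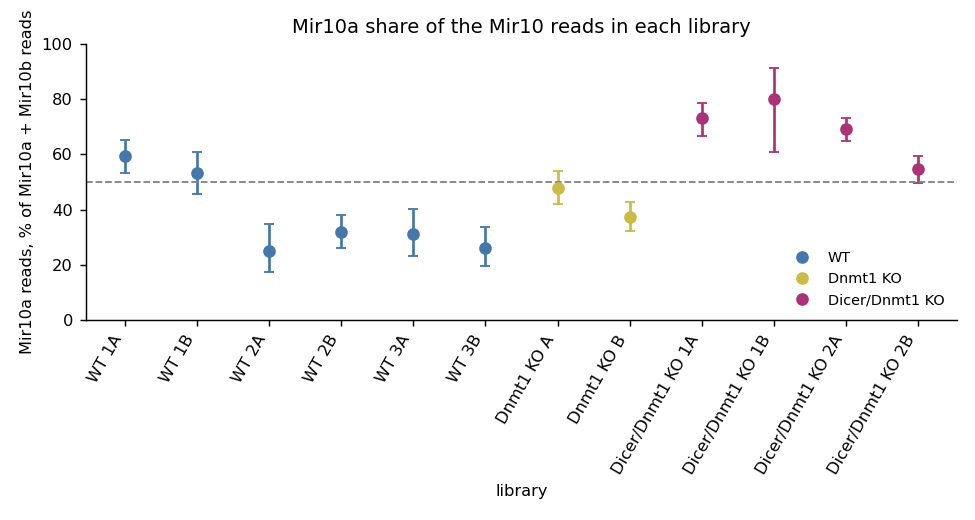
Mir10a reads as a percentage of Mir10a plus Mir10b reads in each library, with 95% Wilson intervals that cover counting error only; the dashed line marks 50%. The 4 Dicer/Dnmt1 KO libraries lie between 54.7% and 80%, the Dnmt1 KO libraries at 48.0% and 37.4%, and the WT libraries between 25% and 59.4%.

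Set against the other miRNAs, both Mir10 genes lay in the upper part of the fold changes in Dicer/Dnmt1 KO. Of 133 tested miRNAs, 72.9% were called between Dicer/Dnmt1 KO and WT, 81 of them lower and 16 higher in the knockout, and the median log2 fold change was -2.75. Mir10a ranked 16 and Mir10b ranked 37 from the top of the 133. Against Dnmt1 KO, 74.4% of the tested miRNAs were called by limma, all 99 of them lower, with a median of -4.17, and there Mir10a ranked 5 and Mir10b ranked 21. Between Dnmt1 KO and WT 21.8% of the tested miRNAs were called and their median was 1.40, and Mir10a and Mir10b, at 1.55 and 1.23, ranked 61 and 72. These ranks are descriptions, and the comparisons share libraries.

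**Figure D3:**
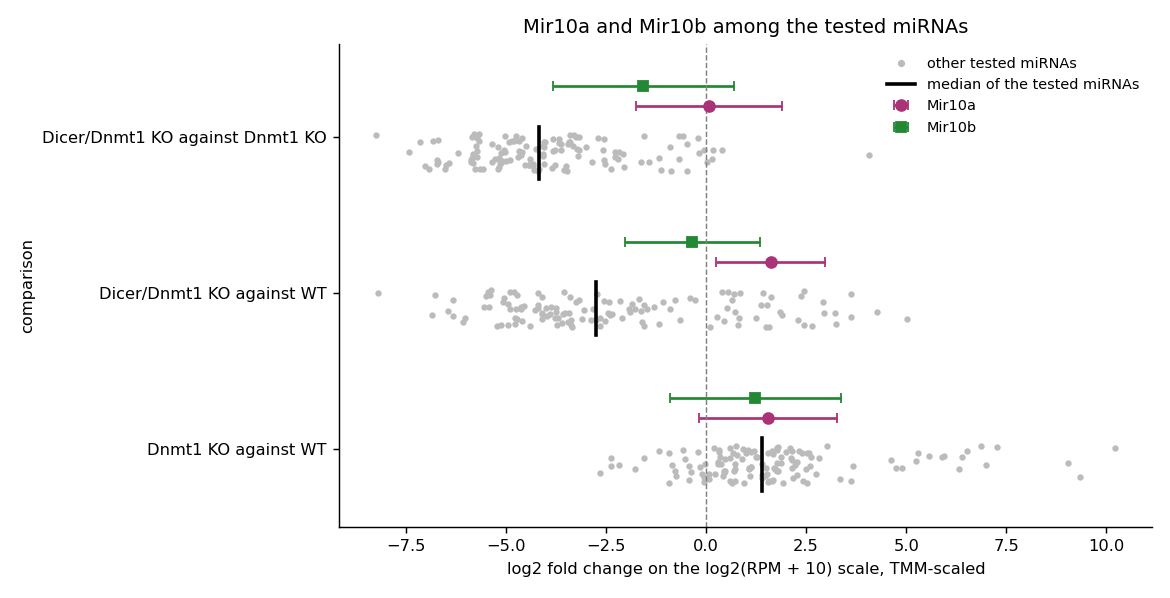
Log2 fold changes of Mir10a and Mir10b with 95% intervals (coloured symbols) and of the other tested miRNAs (grey points) in the 3 comparisons, on the TMM-scaled log2(RPM + 10) scale; black bars are the medians of the 133 tested miRNAs. In the comparison of Dicer/Dnmt1 KO with WT the median is -2.75, Mir10a lies at 1.62 and Mir10b at -0.34.

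The Mir10 genes were also a larger part of the miRNA reads in Dicer/Dnmt1 KO. Mir10a took 0.0753% to 0.212% of the miRNA reads in WT and 0.187% and 0.296% in Dnmt1 KO. In Dicer/Dnmt1 KO it took 4.997% in 1A (95% Wilson interval 4.27% to 5.84%), 3.44% in 1B (2.24% to 5.25%), 5.25% in 2A (4.73% to 5.81%) and 1.96% in 2B (1.72% to 2.24%). By reads it ranked 23 to 60 among the miRNAs of a WT library, and 5 to 10 in Dicer/Dnmt1 KO. Mir10b took 0.132% to 0.615% of miRNA reads in WT, 0.313% and 0.321% in Dnmt1 KO. Its range in Dicer/Dnmt1 KO was 0.859% to 2.34%, where it ranked 11 to 17. For both genes every Dicer/Dnmt1 KO library was above every WT and Dnmt1 KO library by this measure, WT 2A included. Against WT, 18.8% of the tested miRNAs were so placed. A share of the pool rises when other miRNAs fall, so these shares do not show a higher level in the cells.

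Markers of other cells were examined beside these values, since feeder cells are fibroblasts. Of 14 listed fibroblast and mesenchymal miRNAs, 13 had a row, 11 had a read and 6 were tested. Their summed level was 7000 to 14136 RPM in WT, 37605 and 46595 RPM in Dnmt1 KO, and 10279 to 34764 RPM in Dicer/Dnmt1 KO. Against WT, 3 of 6 were called higher in Dnmt1 KO (median log2 fold change 1.93, with 0.13 over all tested features). Of the 133 tested miRNAs, 28 were called higher there, with a median of 1.40. In Dicer/Dnmt1 KO 2 of 6 were called higher (median 0.65, with -0.09 over all), beside 16 of the 133 miRNAs (median -2.75). Between the knockouts 2 of 6 were called lower in Dicer/Dnmt1 KO (median -0.63, with -0.16 over all). In that comparison 99 of the 133 miRNAs were called lower (median -4.17).

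Mir143, a miRNA of smooth muscle and other mesenchymal cells, was higher on average in both knockout groups than in WT, as was Mir10a. It was at 333 to 1115 RPM in WT, 5319 and 6961 RPM in Dnmt1 KO and 4393 to 14883 RPM in Dicer/Dnmt1 KO. Its log2 fold changes against WT were 3.63 in Dnmt1 KO (limma adjusted p = 0.00506) and 2.95 in Dicer/Dnmt1 KO (limma adjusted p = 9.00e-04). Those of Mir10a were smaller, at 1.55 and 1.62, and were not called. Mir21 and Mir22, abundant in differentiated cells, were called higher in Dnmt1 KO, with log2 fold changes of 1.73 and 2.62 (limma adjusted p = 0.0216 and 0.00762), and were -0.66 and -0.78 in Dicer/Dnmt1 KO (limma adjusted p = 0.186 and 0.241). The other tested markers were less abundant, and they are named here after their values were seen. Mir221 was called higher in Dicer/Dnmt1 KO, at 1.61 (limma adjusted p = 0.0468). Mir222 was at 1.57 (limma adjusted p = 0.0960) and Mir31 at -0.27 (limma adjusted p = 0.833). The 7 markers with a row that were not tested were scarce. Mir199a-1 and Mir218-2 had no read in any library, Mir199a-2 and Mir218-1 had 1 each, Mir214 and Mir152 had 16 and Mir145 had 18. The part of feeder or differentiated cells in the Mir10a and Mir10b levels was not tested.

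**Figure D4:**
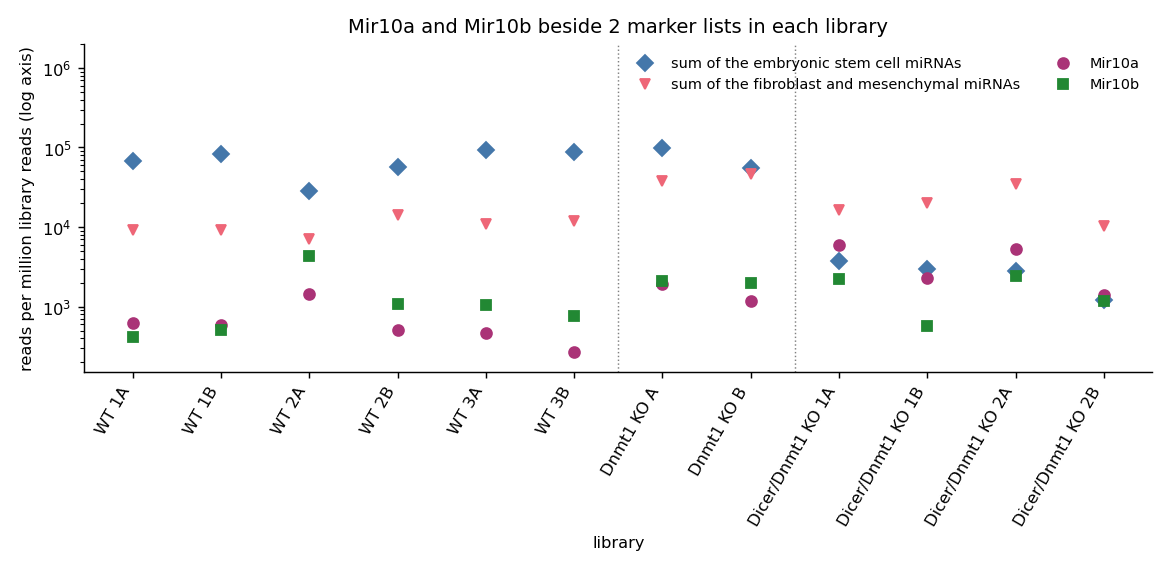
Levels of Mir10a and Mir10b beside the summed levels of the listed ESC miRNAs and the listed fibroblast and mesenchymal miRNAs in each library, in RPM on a log axis; dotted lines separate the groups. The ESC sum is 28683 to 93275 RPM in WT and 1221 to 3797 RPM in Dicer/Dnmt1 KO, and the fibroblast sum is above the ESC sum in the 4 Dicer/Dnmt1 KO libraries and in no other.

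The ESC list was lower in Dicer/Dnmt1 KO, as were most tested miRNAs. Of its 10 tested members, 10 were called lower than in WT (median -5.39), beside 81 of the 133 tested miRNAs (median -2.75) and 130 of the 683 tested features (median -0.09). By limma none was called in Dnmt1 KO. Mir292 and Mir295, the most abundant, were at -6.34 and -4.78 in Dicer/Dnmt1 KO (limma adjusted p = 1.16e-07 and 8.15e-07). WT 2A, the library with the highest Mir10b, had the lowest ESC sum of the WT group, 28683 RPM, and also its lowest fibroblast sum, 7000 RPM. Of 5 blood cell miRNAs, Mir142 and Mir150 were tested and both were, like those 81 miRNAs, called lower in Dicer/Dnmt1 KO, at -4.79 and -4.39 (limma adjusted p = 1.59e-05 and 1.09e-04). The neural list had 0 to 62.5 RPM in WT and no read in any Dicer/Dnmt1 KO library. Neither list was higher in Dicer/Dnmt1 KO than in WT.

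The miRNAs of the wider miR-10 family have other seeds and lie outside the Hox clusters. Of 6 listed, 4 had a row and 2 were tested. Mir99b was at 521 to 2168 RPM in WT, 2156 and 2970 RPM in Dnmt1 KO and 0 to 4493 RPM in Dicer/Dnmt1 KO, and was not called in any comparison. Mir125a was at 175 to 681 RPM in WT, 1093 and 1106 RPM in Dnmt1 KO and 99.5 to 572 RPM in Dicer/Dnmt1 KO. Between the knockouts it was called lower in Dicer/Dnmt1 KO, at a log2 fold change of -3.26 (limma adjusted p = 0.00614). So were 99 of the 133 tested miRNAs counted with it, whose median was -4.17. Their 5′ arms show the seeds:
miR-99b-5p: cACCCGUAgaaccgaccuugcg
miR-125a-5p: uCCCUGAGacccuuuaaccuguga

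The features most like each Mir10 gene over the 12 libraries were found by Pearson correlation of TMM-scaled log2(RPM + 10) among 678 tested features that were neither members nor overlapped one. For Mir10a they were the clone-named miRNA AC122337.1 (r = 0.885), Mir143 (r = 0.864) and the small nucleolar RNA SNORD73 (r = 0.854). For Mir10b they were Lancl2 (r = 0.914), a gene with 43 reads in all, Mir183 (r = 0.874) and Mir146 (r = 0.870), which had 23 reads in all. Mir10a and Mir10b correlated with each other at r = 0.604. All of these values share the depth and scaling of the same libraries, WT 2A among them.

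The Mir196 genes were at the limit of detection. Mir196a-1 had 1, 1 and 2 reads in WT 2B, 3A and 3B, 1 read in Dicer/Dnmt1 KO 2A, and none in the other 8 libraries. Mir196a-2 had 2, 1, 2 and 2 reads in WT 1A, 1B, 2B and 3B, 2 reads in Dnmt1 KO B, and 1, 1 and 2 reads in Dicer/Dnmt1 KO 1B, 2A and 2B. Mir196b had 1, 2 and 1 reads in WT 2B, 3A and 3B, 2 and 4 reads in Dnmt1 KO A and B, and 1 and 2 reads in Dicer/Dnmt1 KO 2A and 2B. The highest count, 4 reads of Mir196b in Dnmt1 KO B, equals 37.2 RPM.

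**Figure D5:**
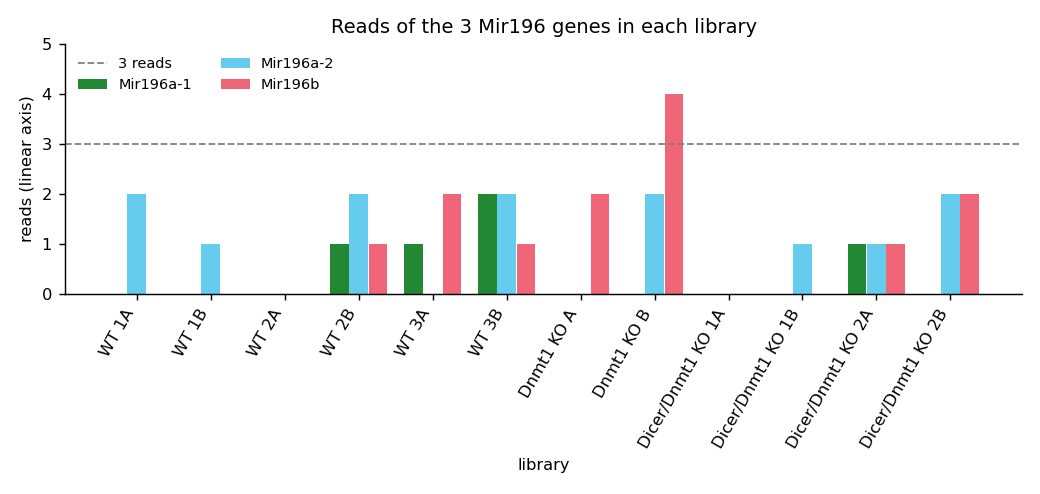
Reads of Mir196a-1, Mir196a-2 and Mir196b in each library on a linear axis; the dashed line is at 3 reads, the most that a count of 0 allows. Only Mir196b in Dnmt1 KO B, with 4 reads, is above the line.

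Pooled over the libraries of a group, Mir196b was at 5.24 RPM in WT (4 reads, exact 95% interval 1.43 to 13.4), 34.2 RPM in Dnmt1 KO (6 reads, 12.6 to 74.5) and 12.1 RPM in Dicer/Dnmt1 KO (3 reads, 2.50 to 35.4). The intervals cover counting error only, and those of neighbouring groups overlap. Mir196a-2 was at 9.18 RPM in WT (7 reads, 3.69 to 18.9), 11.4 RPM in Dnmt1 KO (2 reads, 1.38 to 41.2) and 16.2 RPM in Dicer/Dnmt1 KO (4 reads, 4.41 to 41.4). Mir196a-1 was at 5.24 RPM in WT (4 reads, 1.43 to 13.4), at 0 in Dnmt1 KO (up to 21.0) and at 4.04 RPM in Dicer/Dnmt1 KO (1 read, 0.10 to 22.5). None of the 3 passed the filter on low values. Without it, the limma fit called none of them. The largest difference from WT was that of Mir196b in Dnmt1 KO (log2 fold change 1.86, limma adjusted p = 0.287, unadjusted p = 0.00612). Between the knockouts Mir196b was at -1.89 (limma adjusted p = 0.296, unadjusted p = 0.00872). With so few reads, a difference between genotypes was neither shown nor excluded.

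Reads over the Hox clusters came almost wholly from Mir10a and Mir10b. The spans from the first to the last Hox gene of the 4 clusters hold 66 features, of which 5 are the members and 6 overlap a member. Summed over features, the other 55 carried 22 reads over the 12 libraries, spread over 13 features, with at most 2 for any feature in a library. A read over overlapping features is counted for each of them. Mir615, a miRNA of the Hoxc cluster, lies within Hoxc5. Both had 5 reads, with equal counts in every library, and Gm15051 had 2. Of 4 listed noncoding RNAs of the clusters, Mir615 alone matched a row by its symbol. Reads of a member were also counted for the gene around it. Hoxb4 had the 1379 reads of Mir10a, Hoxd4 the 1322 of Mir10b and Hoxd3 1323, and Hoxa9 the 13 of Mir196b. The table holds 40 rows for 39 Hox gene symbols, of which 29 had no read. The 36 rows away from the members had 11 reads in all, including the 5 that Hoxc5 shares with Mir615, so Hox transcript levels cannot be read from this table. Hoxb4, Hoxd3 and Hoxd4 were the Hox genes tested, and none was called.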

How the data were processed

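Small RNAs of mouse ESCs were sequenced in 12 libraries. According to the submitters' processing notes and the methods of the study, the authors trimmed reads with Trim Galore 0.3.5, kept those of 20 to 24 nt, mapped them to NCBIM37 with Bowtie2 2.2.6 and counted overlaps with features in SeqMonk. Whether strand was used is not stated. The deposited values are log2 RPM, with 0 reads written by the authors as 0.9 read. Setting each column's lowest value to 0.9 read returned whole reads for 100% of values (tolerance 0.05 read). A further 89 value columns belonging to no sample of the series were not used.

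Features with the RPM of 10 reads at the median depth (111 RPM) in 2 or more libraries and 15 reads in total were kept (683). They were scaled by TMM computed on those features, and log2(RPM + 10) was fitted with the trend option of limma 3.58.1 under R 4.3.3, one model over 3 groups and no covariate, with Benjamini-Hochberg adjustment at 0.05. The use of the tested features for scaling was settled after values had been seen, and scaling on all features was kept as an alternative. Mir10a and Mir10b levels were also compared by two-sided exact permutation of RPM between WT and Dicer/Dnmt1 KO. Gene types and positions came from GENCODE vM1 (NCBIM37), and sequences from RefSeq. The code was tested on simulated data. Members, lists and comparisons were chosen with earlier results of these data known. Named features were the members, features overlapping them, the 3 most correlated features, up to 3 of each list by mean RPM (for the fibroblast list the others were named after their values were seen), and up to 5 others of the Hox clusters by reads. Alternatives covered scaling, pseudocount, filter, voom weights, the A and B libraries, replicate blocks and the omission of libraries or cultures. Intervals and limits of counts cover counting error only.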

Additional observations from a re-analysis of the deposited data

Results flagged for a closer look

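Levels within WT (6 libraries) and Dicer/Dnmt1 KO (4 libraries) were checked by Dixon's gap test for a library far from the rest, in 23 sets of values. Chance flags about 1 in 20 sets of normally distributed values. That rate does not hold for sets of very low counts, where a library that alone has reads is always flagged. There were 7. WT 2A, with 16142 reads, was the highest WT library for Mir10a (1425 RPM), Mir10b (4275 RPM) and the summed miR-10 family relatives (2850 RPM). The other 4 rest on 1 or 2 reads. They were Mir196b in WT 3A (27.7 RPM, 2 reads), Mir196a-1 in Dicer/Dnmt1 KO 2A (15.8 RPM, 1 read), Mir196a-2 in Dicer/Dnmt1 KO 1B (115 RPM, 1 read) and Mir615, the one listed noncoding RNA of the Hox clusters with a row, in Dicer/Dnmt1 KO 2A (31.5 RPM, 2 reads).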

How the results depend on the processing

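The number of features called for Dnmt1 KO against WT, 47, moved to 31 with pseudocount 1, 80 with voom weights, 17 with A and B summed, 30 with culture as a random effect, 181 without E14 2 (96 higher and 85 lower in place of 45 and 2), 31 without WT culture 1, 30 without WT culture 3, 28 with TMM from all features and 141 without the 2 smallest libraries. It ranged from 16 to 84 with each library left out (70 higher and 14 lower without WT 2A), where a lone Dnmt1 KO library is assumed to vary like the others. The other 2 counts stayed within 1.5 times of 165 and 156, at 143 to 207 and 107 to 209 with each library left out. The omissions of cultures other than E14 2 and of the 2 smallest libraries together, the scaling on all features and the fit of 8 libraries without a block were chosen after seeing the data. Without scaling factors the calls between the knockouts split into 24 higher and 127 lower in place of 8 and 148, and they split into 68 and 153 without E14 2 and 46 and 163 without WT 2A. For Dicer/Dnmt1 KO against WT, Mir10a became called with no scaling factors (2.47), TMM from features other than miRNAs (1.81), voom (1.77), no E14 2 (2.40) and without the 2 smallest libraries (2.57), and it ranged from 1.36 to 2.32 with each library left out (limma adjusted p 0.00115 to 0.204), being called without WT 2A (2.32), WT 3A (1.78), Dnmt1 KO A (1.89) or Dnmt1 KO B (1.90). For Dnmt1 KO against WT it became called without E14 2 (1.98) and without the 2 smallest libraries (2.27), and ranged from 1.41 to 2.03 with each library left out. Between the knockouts its sign changed, from 0.07, without WT 3B (-0.11), Dnmt1 KO B (-0.12), Dicer/Dnmt1 KO 1A (-0.18) or 2A (-0.0038), within a range of -0.18 to 0.48 with each library left out, and it was 1.08 without scaling factors. Mir10b in Dnmt1 KO against WT became called without E14 2 (1.95) and without the 2 smallest libraries (2.11). In Dicer/Dnmt1 KO against WT its sign changed, with no call, with no scaling factors (0.51), A and B summed (0.48), no E14 2 (0.73), no Dicer/Dnmt1 KO culture 1 (0.26), no WT 2A (0.52), no Dicer/Dnmt1 KO 1B (0.20) and without the 2 smallest libraries (1.03), within -0.61 to 0.52 with each library left out. By exact permutation, the Mir10a difference in RPM lost significance on TMM-scaled RPM (1379 RPM), and ranged from 2378 to 3912 RPM with each library left out. The Mir10b difference changed sign on TMM-scaled RPM (-1314 RPM) and without Dicer/Dnmt1 KO 2A (-35.4 RPM), ranged from -35.4 to 821 RPM with each library left out, and passed 0.05 without the 2 smallest libraries (1157 RPM). The causes of these changes were not tested.

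With the letter as a replicate block, Mir10a in Dicer/Dnmt1 KO against WT stayed at 1.62 and became called (limma adjusted p = 0.0481). With the number and letter as a replicate block over the 8 libraries that share them it was 1.28 (limma adjusted p = 0.284), and without the block on those libraries 1.28 (limma adjusted p = 0.245). Blocking changed no other call of the members. Equal codes did not deviate together (correlations -0.23, 0.11, -0.17 and -0.29 for 1A, 1B, 2A and 2B), so the numbers were not treated as pairing the samples. Depth limits the Mir196 genes most, since 3 reads are 12.2 to 344 RPM.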
